A study of Homo sapiens with 6 samples.

Results

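The genes described are the YAP and TEAD transcription machinery and its Hippo output: the coactivators YAP1 and WWTR1, which encodes TAZ, the DNA-binding partners TEAD1, TEAD2 and TEAD4, and the output genes CCN1, CCN2, ANKRD1, AMOTL2 and LATS2. They were taken by gene symbol from the deposited expression table, where each symbol matched 1 row, giving 10 of 20347 genes. The table held poly(A)-selected RNA-seq of PaTu8988t, an established human line of pancreatic ductal adenocarcinoma (PDAC). Cells of genotype Control (3 replicates), made with an unspecific CRISPR control, were compared with cells in which SAMD1, a chromatin protein that binds unmethylated CpG islands, had been knocked out with CRISPR/Cas9 (SAMD1 KO, 3 replicates). Both were made with a lentiviral CRISPR plasmid and grown in high-glucose medium with serum. Each KO library came from 1 clone, in which the deletion and other properties of that clone cannot be told apart, and whether the control replicates were separate cultures is not given in the sources used here. The p-values therefore measure the spread between these libraries, part of which may be technical.

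YAP and TAZ are coactivators without a DNA-binding domain of their own. When the Hippo kinases MST1/2 and LATS1/2 are active, LATS phosphorylates both proteins and holds them in the cytoplasm, where they are degraded. When the kinases are quiet, YAP and TAZ enter the nucleus, join a TEAD factor and drive a set of genes that includes matricellular proteins of the CCN family as well as AMOTL2 and LATS2, whose products restrain YAP in turn. In pancreatic cancer cells the pathway is known for its part in proliferation, matrix signalling and drug tolerance. YAP and TAZ are controlled mainly through phosphorylation, localization and turnover of the protein, none of which is measured by mRNA.

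The promoters of 3 of the genes are shown because they differ in copies of GGAATG, the core motif bound by TEAD factors. The RNA of these genes also changed differently, as given below, but whether copy number goes with the change was not tested. The sequences are the 250 bases before the transcription start in RefSeq (GRCh38.p14), 5′ to 3′ on the strand of the gene, with each GGAATG or its complement CATTCC in capitals. The CCN2 stretch is chr6:131951373-131951622 on the minus strand, the ANKRD1 stretch is chr10:90921088-90921337 on the minus strand, and the YAP1 stretch is chr11:102110197-102110446 on the plus strand. In GENCODE 44 the last of these also lies in an exon of an unnamed long noncoding RNA on the minus strand, and the other 2 overlap no annotated exon.
CCN2: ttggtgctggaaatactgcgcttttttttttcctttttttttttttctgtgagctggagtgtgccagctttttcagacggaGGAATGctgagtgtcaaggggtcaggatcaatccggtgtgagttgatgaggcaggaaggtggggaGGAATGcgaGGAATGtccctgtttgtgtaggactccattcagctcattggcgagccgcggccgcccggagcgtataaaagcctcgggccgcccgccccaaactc
ANKRD1: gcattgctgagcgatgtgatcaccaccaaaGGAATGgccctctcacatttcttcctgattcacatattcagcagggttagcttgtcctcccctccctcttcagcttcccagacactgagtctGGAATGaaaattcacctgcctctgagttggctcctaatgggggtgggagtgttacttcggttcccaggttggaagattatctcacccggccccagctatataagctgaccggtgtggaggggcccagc
YAP1: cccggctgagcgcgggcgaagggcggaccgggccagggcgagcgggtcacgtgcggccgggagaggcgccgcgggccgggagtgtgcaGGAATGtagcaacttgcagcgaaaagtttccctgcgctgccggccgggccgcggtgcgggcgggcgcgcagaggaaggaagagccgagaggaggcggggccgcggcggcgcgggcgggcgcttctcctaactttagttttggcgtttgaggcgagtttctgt

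The RefSeq promoter table gave 10 windows for 7 of the 10 genes, each reaching from 250 bases before to 50 bases after a start site, and held none for TEAD1, TEAD4 and CCN1. The motif was searched on both strands, on which its copies cannot overlap those of its complement. CCN2 held 3 copies, beginning 169, 104 and 95 bases before the start. ANKRD1 held 2 copies, at 220 and 128 bases before the start, and YAP1 held 1, at 162 bases. AMOTL2 held 1 copy on the reverse strand, 69 bases before the more downstream of its 2 listed starts, and LATS2 held 1 copy beginning 9 bases after its start. The windows of WWTR1 and TEAD2 held none. Of all 35116 windows of this length in the table, 14.0% held at least 1 copy, 1.37% at least 2 and 0.128% at least 3. SAMD1 has been linked to GC-rich motifs at CpG islands, so GCGC was counted too. These letters occurred, overlapping copies included, 8 times in the YAP1 window and 9 times in the downstream AMOTL2 window but not in that of ANKRD1. The CCN2 and LATS2 windows held 1 copy each, the upstream AMOTL2 window 0, the WWTR1 windows 0 and 3, and the TEAD2 windows 1 and 2, and 57.2% of all windows held it at least once. The YAP1 window held 40 CG dinucleotides and the ANKRD1 window 5, against a median of 14 over all windows. A letter match describes the sequence only, and binding at these windows was not analysed here.

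Sequencing depth was high in every library. The recovered read totals ran from 35589477 to 41572022 in the control libraries and from 41097091 to 45172216 in the KO libraries, and 1 normalized count stood for close to 1 read. The targeted gene followed its labels: SAMD1 stood at 2231, 2382 and 2299 normalized counts in the controls and at 874, 1082 and 825 in the clones, a log2 fold change of -1.32 ± 0.105 (SE; limma, adjusted p = 0.000724). Of the keratins of epithelial cells, KRT8 (32903 to 57041 normalized counts over the 6 libraries) and KRT18 (29200 to 50795) were abundant. KRT7 lay between 26.4 and 90.7, and KRT19 had no reads. Among the other epithelial genes, EPCAM lay between 422 and 626, MUC1 between 186 and 240, and CDH1 between 24.0 and 45.8. Markers of other cell types were far below KRT8 and KRT18. The summed level of the 7 fibroblast markers was 167 to 170 in the controls and 164 to 458 in the clones (DCN and LUM had no reads). That of the 4 endothelial markers was 80.1 to 85.9 and 35.6 to 85.4, and that of the 4 immune markers 368 to 378 and 264 to 354 (CD3E had no reads). Most of the immune sum was CD68, at 353 to 368 in the controls and 242 to 326 in the clones. In every library CD68 was above MUC1, KRT7 and CDH1. Among the epithelial genes, KRT7 (log2 fold change 1.46, limma adjusted p = 0.00392) and KRT18 (0.52, adjusted p = 0.0598, up to 0.189 with 1 library left out) were called higher. Of the 3 tested fibroblast markers, PDGFRA, at a mean of 3.98 in the controls and 17.9 in the clones, was called higher but passed the minimum only through the clones, COL3A1 had a log2 fold change of 1.13 (adjusted p = 0.0881) and COL1A1 one of -1.04 (adjusted p = 0.0980). The endothelial CDH5 had a log2 fold change of -1.80 (adjusted p = 0.0748). Their part in the results below was not tested.

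The first question was whether loss of SAMD1 altered the RNA level of the 10 genes. CCN2, which encodes a secreted matricellular protein also known as CTGF, fell in all 3 clones, by 39.7% on average, and was the only one of the 10 genes past the cut-off used by the study. YAP1, WWTR1, AMOTL2 and LATS2 fell by 13.2% to 25.3%, and TEAD2 rose by 29.7%. CCN1 was lower in every clone but missed the adjusted threshold, and TEAD1, TEAD4 and ANKRD1 had clones within or above the control range. In bulk RNA, fewer cells expressing a gene and less of its RNA per cell cannot be told apart.

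A gene was called when its log2 fold change, computed on log2(normalized count + 1), exceeded 0.5 in either direction at an unadjusted limma p below 0.01. By this rule 1 of the 10 genes was lower, against 2.08% of the 12773 genes tested, and 0 were higher, against 5.77%. The count models edgeR and DESeq2 on the recovered reads also gave 1 and 0, and at an unadjusted limma p below 0.05 the counts were 7 lower and 1 higher, against 13.5% and 16.1% of all tested genes. By the adjusted p alone (Benjamini-Hochberg over all tested genes, limit 0.05), 5 of the 10 were lower, against 4.70% of all genes, and 1 was higher, against 8.32%. The clones did not overlap the controls for 7 of the 10, lower in 6 and higher in 1, while 37.8% of all genes had no overlap in either direction. The median log2 fold change of the 10 was -0.26, that of all tested genes was -0.01, and 9 of the 10 values were negative. All 10 genes passed the filter of a mean of 10 normalized counts in both groups. The number of genes past the adjusted limit changed when a library was left out. Without any 1 of the control replicates, CCN2 was the only one of the 10 with an adjusted p below 0.05 in limma, whereas without clone 1 the count lower was 7.

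**Figure D1:**
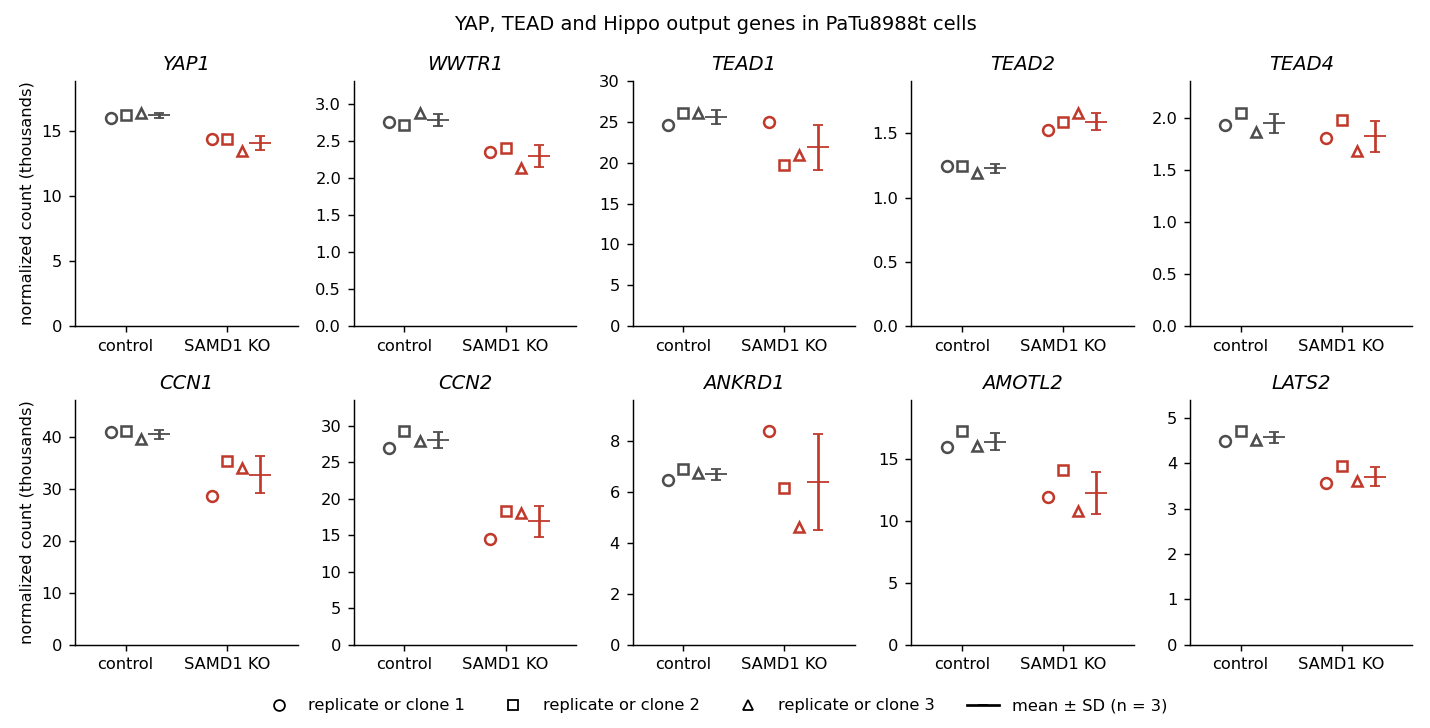
Normalized counts (axes in units of 10 to the power 3, from 0) of the 10 genes in each library, with controls in grey and SAMD1 KO clones in red, the replicate or clone number given by the marker and the cross with bars giving mean ± SD (n = 3). CCN2 lay between 14490 and 18300 in the clones against 26989 to 29242 in the controls, TEAD2 was the only gene higher in every clone, and the ANKRD1 clones fell on both sides of the controls.

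Of the coactivators, YAP1 (chr11:102110447-102233424, plus strand, GRCh38) had 16014, 16211 and 16373 normalized counts in the controls and 14385, 14380 and 13442 in the clones. All clones lay below all controls, and the controls differed among themselves by little, with a coefficient of variation (CV) of 1.11%. The log2 fold change was -0.20 ± 0.051 (SE; 95% interval -0.32 to -0.08; limma, adjusted p = 0.0414). WWTR1 (chr3:149517235-149736714, minus strand) encodes TAZ, the paralogue that shares the TEAD-binding surface with YAP. It had 2759, 2728 and 2884 normalized counts in the controls and 2360, 2410 and 2136 in the clones. The groups again did not overlap, clone 3 being the lowest for both genes, and the log2 fold change was -0.28 ± 0.064 (limma, adjusted p = 0.0323). With the median of the 40 nearest genes subtracted in each clone, YAP1 was at -0.15 (limma, adjusted p = 0.0727). With any 1 control replicate left out both genes lost significance, with an adjusted p of up to 0.177 for YAP1 and up to 0.1496 for WWTR1 in limma.

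Per kilobase of merged exon, YAP1 was far more abundant than WWTR1. YAP1 had 2567 ± 28.5 normalized counts per kb in the controls and 2229 ± 86.0 in the clones, and WWTR1 had 334 ± 9.9 and 276 ± 17.5 (SD, n = 3). Within each library, the WWTR1 level per kb was 13.0%, 12.7% and 13.3% of that of YAP1 in the controls and 12.4%, 12.7% and 12.01% in the clones. The log2 ratio of the pair was lower by 0.075 in the clones (exact two-sided permutation p = 0.1, the smallest that 3 against 3 libraries allow), a smaller difference than that of either gene alone.

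The TEAD factors carry the DNA-binding domain of the complex, and the 4 paralogues have largely interchangeable recognition sites. TEAD1 (chr11:12674421-12944737, plus strand) was the main TEAD transcript, with 24600, 26103 and 26063 normalized counts in the controls and 24977, 19785 and 20921 in the clones. Clone 1 lay within the controls, while clones 2 and 3 lay below all of them. The log2 fold change was -0.23 ± 0.091 and did not pass (limma, adjusted p = 0.140), although it did without clone 1 (-0.33, adjusted p = 0.0104) and with regional medians subtracted (-0.31, adjusted p = 0.0161). TEAD4 (chr12:2959330-3040676, plus strand) had 1931, 2045 and 1867 normalized counts in the controls and 1804, 1978 and 1684 in the clones. Its groups overlapped, and the 95% interval of its log2 fold change ran from -0.28 to 0.08 (estimate -0.10; limma, adjusted p = 0.428).

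TEAD2 (chr19:49340595-49362457, minus strand) moved the other way. It had 1245, 1249 and 1190 normalized counts in the controls and 1526, 1593 and 1660 in the clones. Every clone was above every control, with a log2 fold change of 0.37 ± 0.062 (95% interval 0.23 to 0.52; limma, adjusted p = 0.00999). The gene overlaps CD37 and DKKL1 on the opposite strand. The library kit marks strand, but the strand setting used for counting is not given in the sources used here, so reads from the overlaps may be shared. The median log2 difference of the 40 nearest tested genes was -0.02, 0.09 and 0.32 in clones 1, 2 and 3, beside 0.31, 0.38 and 0.43 for TEAD2 itself. With these regional medians subtracted the log2 fold change was 0.25. Without any 1 control replicate the adjusted p was above 0.05, at most 0.0669.

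**Figure D2:**
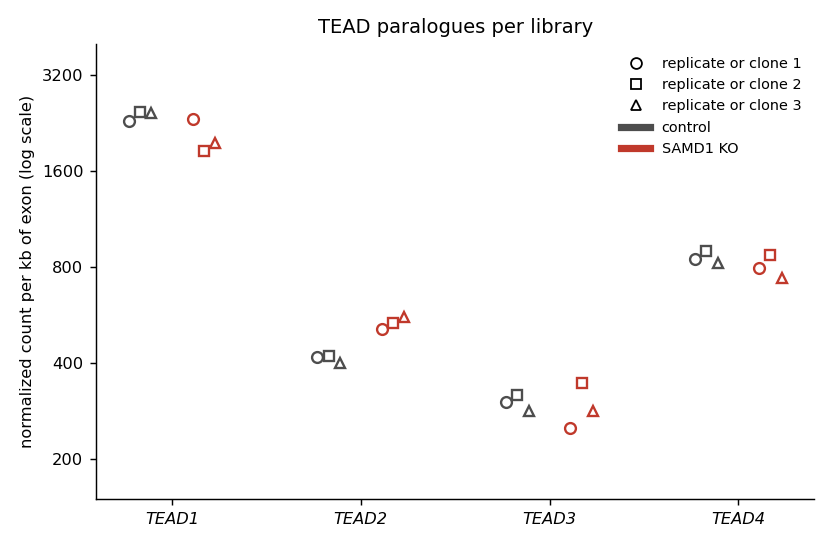
Level of the 4 TEAD genes in each library as normalized counts per kb of merged exon (log axis), controls in grey and SAMD1 KO clones in red, with the marker giving the replicate or clone. TEAD1 was the highest and TEAD3 the lowest on average in both groups, and TEAD2 was the only one of the 4 in which the clones and controls were fully separate.

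Because the TEAD proteins share the coactivators YAP and TAZ, their RNA levels were also compared within each library. They were taken as shares of their sum, which do not depend on how libraries were scaled. The sum itself does: the 4 genes summed to 3960 ± 105 normalized counts per kb in the controls and 3675 ± 189 in the clones (exact two-sided permutation p = 0.2, n = 3). TEAD1 made up 59.4%, 59.9% and 61.9% of that sum in the controls and 60.02%, 51.4% and 55.3% in the clones, and the groups overlapped (exact permutation p = 0.3). The shares depend on the merged exon length, which was 10700 bases for TEAD1 against 2275 to 3049 for the other paralogues. Without division by length TEAD1 would hold a larger share. The share of TEAD2 was 10.8%, 10.3% and 10.1% in the controls and 13.2%, 14.9% and 15.8% in the clones, without overlap (exact permutation p = 0.1, the smallest possible). TEAD4 held 21.6 ± 0.67% and 21.8 ± 2.0%, and TEAD3, the paralogue outside the 10 genes, held 7.59 ± 0.37% and 8.02 ± 1.6%. The vestigial-like cofactors, which bind TEAD in competition with YAP, were sparse apart from VGLL4. VGLL3 had 105, 94.9 and 98.5 normalized counts in the controls and 54.4, 46.7 and 70.2 in the clones, and was called lower (log2 fold change -0.81 ± 0.19, limma adjusted p = 0.0345, up to 0.151 with 1 library left out). VGLL4 had a log2 fold change of 0.06 (adjusted p = 0.808) and VGLL2 one of 0.87 (adjusted p = 0.318), and VGLL1 had no reads.

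Among the output genes, CCN2 (chr6:131948176-131951372, minus strand) had the largest change. It had 26989, 29242 and 27931 normalized counts in the controls and 14490, 18300 and 17994 in the clones. The highest clone stayed well below the lowest control, and clone 1 was the lowest. The log2 fold change was -0.74 ± 0.096 (95% interval -0.96 to -0.51; limma, adjusted p = 0.00416), and leaving out 1 library at a time gave -0.80 to -0.63, with an adjusted p below 0.05 in all 6 fits. The genes around CCN2 did not share the fall: the 40 nearest tested genes had medians of -0.04, 0.12 and 0.17 in the 3 clones. By limma p, CCN2 ranked 287 of the 12773 tested genes.

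CCN1 (chr1:85580761-85584589, plus strand), also known as CYR61, is the closest partner of CCN2 in function and a standard YAP readout. It had 40846, 41037 and 39512 normalized counts in the controls and 28614, 35425 and 34063 in the clones. All clones lay below all controls, clone 1 again being the lowest, but the spread among the clones was 11.02% of their mean against 2.05% in the controls. The log2 fold change was -0.31 ± 0.087 (95% interval -0.52 to -0.11; limma, adjusted p = 0.0565), with an adjusted p of 0.0296 at the least and 0.200 at the most when 1 library was left out. With regional medians subtracted it was -0.21 (limma, adjusted p = 0.168). Per kb of merged exon the 2 genes were close in level in the controls, at 11999 normalized counts for CCN2 and 10942 for CCN1. The ratio of CCN2 to CCN1 per kb was 1.05, 1.13 and 1.12 in the controls and 0.801, 0.817 and 0.836 in the clones. It was lower in every clone than in every control, with little spread in either group. Its exact permutation p could not go below 0.1. Whether the ratio lies above or below 1 depends on the merged exon lengths, 2338 bases for CCN2 and 3698 for CCN1. In undivided counts CCN2 was below CCN1 in every library. The ratio was not among the planned comparisons. Of the other CCN genes, CCN3 was at 45.9 ± 8.5 and 68.4 ± 22.5 normalized counts (log2 fold change 0.53, limma adjusted p = 0.269), CCN4 had no reads, and CCN5 and CCN6 were under the minimum.

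ANKRD1 (chr10:90912096-90921087, minus strand), which encodes a stress-induced ankyrin repeat protein that is widely used as a YAP reporter, did not follow CCN2. It had 6455, 6898 and 6731 normalized counts in the controls and 8381, 6155 and 4610 in the clones. Clone 1, the lowest for CCN1 and CCN2, was above every control for ANKRD1, while clones 2 and 3 were below. The log2 fold change was -0.11 ± 0.19 with a 95% interval from -0.56 to 0.33 (limma, adjusted p = 0.737), which holds both a loss as large as that of AMOTL2 and a gain. It ran from -0.33 without clone 1 to 0.10 without clone 3. Its CV was 3.34% in the controls and 29.7% in the clones, the highest of the 10 genes, and its log2 SD over the clones exceeded that of 88.3% of all tested genes. Its relatives were also undecided: ANKRD2 had a log2 fold change of -0.79 (adjusted p = 0.267) and ANKRD23 one of -0.13 (adjusted p = 0.680).

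AMOTL2 and LATS2 are output genes that feed back on the pathway. AMOTL2 (chr3:134355347-134375479, minus strand) encodes an angiomotin that tethers YAP at junctions and actin. It had 16022, 17258 and 16060 normalized counts in the controls and 11929, 14155 and 10778 in the clones. The groups did not overlap, and the log2 fold change was -0.43 ± 0.099 (limma, adjusted p = 0.0324). Clone 2 was the highest, and without it the gene was called lower at -0.54, while without a control replicate its adjusted p reached 0.135. Its paralogues did not pass: AMOTL1 had a log2 fold change of 0.23 (adjusted p = 0.0684) and AMOT, far less abundant, one of -0.25 (adjusted p = 0.550). LATS2 (chr13:20973036-21061586, minus strand) encodes a kinase that phosphorylates YAP and TAZ. It had 4502, 4705 and 4511 normalized counts in the controls and 3558, 3948 and 3612 in the clones. The groups were separate, with a log2 fold change of -0.30 ± 0.058 (limma, adjusted p = 0.0169, at most 0.0906 without 1 library). LATS1, its paralogue, had 4200 ± 115 and 3855 ± 299 normalized counts and a log2 fold change of -0.13 (adjusted p = 0.260).

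**Figure D3:**
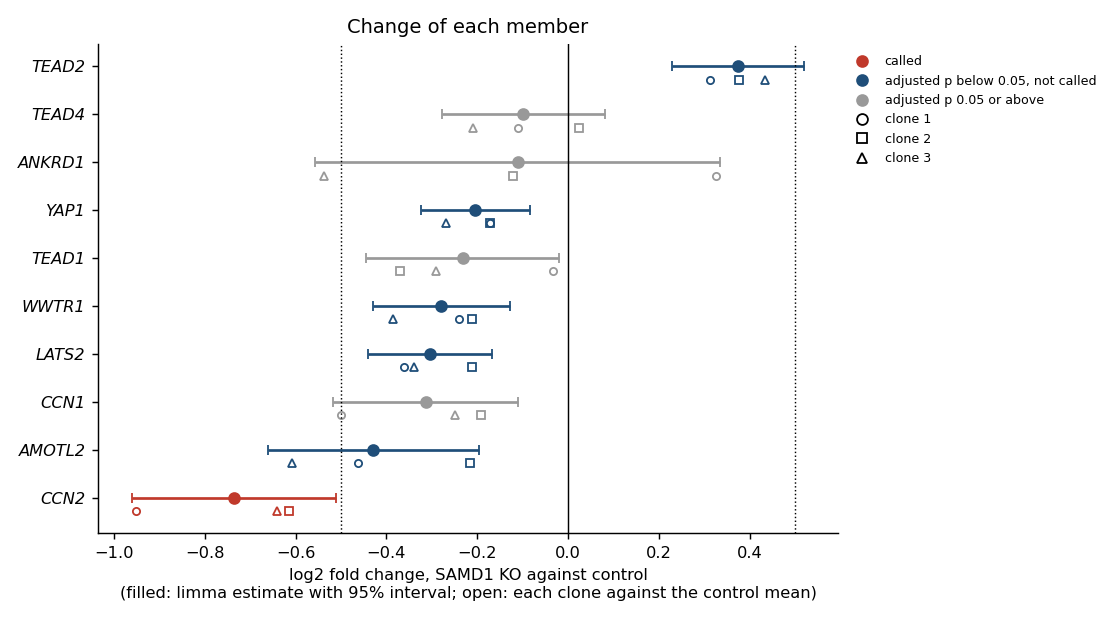
Log2 fold changes of the 10 genes, with SAMD1 KO clones set against controls. Filled points with bars give the limma estimate and its 95% interval, open markers give each clone against the control mean, and dotted lines mark the limit of 0.5. CCN2 alone lies beyond the limit at -0.74, TEAD2 lies alone on the positive side at 0.37, and the clones of ANKRD1 reach from -0.54 to 0.32.

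The clones differed from each other more than the controls did. The log2 SD was larger over the clones than over the controls for 10 of 10 genes, and for 82.8% of all tested genes, whose median log2 SD was 0.059 in the controls and 0.15 in the clones. The CV of the 10 genes ran from 1.11% to 4.62% in the controls and from 3.86% to 29.7% in the clones. The lowest clone varied by gene: clone 1 was the lowest of the 3 for 4 genes, clone 2 for 1 and clone 3 for 5. The median log2 difference of the 10 genes from the control mean was -0.21, -0.20 and -0.31 in clones 1, 2 and 3.

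A longer list of YAP and TAZ target genes, 22 genes of which 5 are among the 10, was mostly on the lower side in the clones. Of 21 tested genes (FOXF2 had no reads), 3 were called lower and 0 higher, 7 fell by adjusted p and 0 rose, and the median log2 fold change was -0.30, against -0.01 over all tested genes. At an unadjusted limma p below 0.05, 11 were lower and 1 higher, and edgeR and DESeq2 also called 3 lower and 0 higher. Over all tested genes 2.08% were called lower and 5.77% higher, 4.70% fell and 8.32% rose by adjusted p, and 13.5% were lower and 16.1% higher at the unadjusted limit. Without the 5 shared genes the counts were 2 called and 4 by adjusted p among 16, with a median of -0.17. TGFB2, a secreted growth factor, had 106, 129 and 117 normalized counts in the controls and 27.7, 42.3 and 23.4 in the clones. This was the largest fall of the list, with a log2 fold change of -1.92 ± 0.25 (limma, adjusted p = 0.00394). CCDC80, a matrix protein, had 606, 540 and 550 against 198, 349 and 312 normalized counts (-1.02 ± 0.20, limma adjusted p = 0.0200, up to 0.101 with 1 library left out). The growth factor-binding proteins IGFBP3 and CRIM1 fell by 0.44 and 0.38 on the log2 scale (limma, adjusted p = 0.0250 and 0.0281, at most 0.128 and 0.120 with 1 library left out).

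FJX1 shows how far the clones could differ within this list. It had 1873, 1952 and 1881 normalized counts in the controls and 541, 1663 and 952 in the clones, a mean 44.7% lower that did not pass (limma, adjusted p = 0.108). FJX1 was chosen for mention after its values were seen. Without clone 2 the list had 6 called genes and a median log2 fold change of -0.20. Lists of genes driven by other factors were read beside the same shares of all genes. These were 2.08% called lower and 5.77% called higher, with 13.5% lower and 16.1% higher at an unadjusted limma p below 0.05. Of the 12 tested of 14 actin-responsive SRF and MRTF targets, 1 was called lower and 0 higher by limma, edgeR and DESeq2 alike, with 4 lower and 0 higher at an unadjusted limma p below 0.05 and a median log2 fold change of -0.14. This was TAGLN, a smooth muscle actin-binding protein, with 835, 873 and 837 against 241, 549 and 484 normalized counts (limma, adjusted p = 0.0468, up to 0.156 with 1 library left out). Of the 10 tested of 12 immediate early genes, 1 was called higher and 0 lower by the same tools, with 4 higher and 1 lower at an unadjusted limma p below 0.05 and a median of 0.34. This was JUNB, at 279, 348 and 263 against 477, 698 and 672 normalized counts (1.04 ± 0.18, limma adjusted p = 0.0110, up to 0.0637 with 1 library left out), and ATF3 also rose (0.42, adjusted p = 0.0260, up to 0.124).

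**Figure D4:**
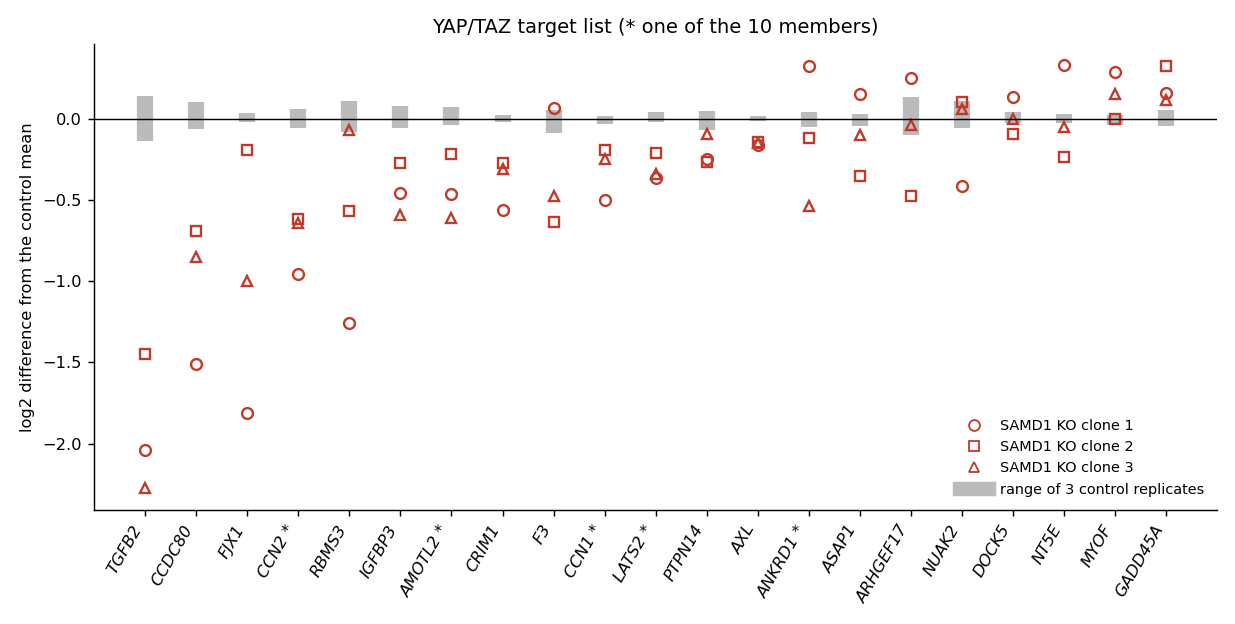
Log2 difference of each SAMD1 KO clone (red markers, by clone) from the control mean for the 21 tested YAP/TAZ target genes, ordered by their mean over clones, with grey bars for the range of the 3 controls and asterisks on the genes that are among the 10. TGFB2, CCDC80 and CCN2 lie below the controls in every clone, whereas ANKRD1 and several genes on the right have clones on both sides of 0.

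The RNA of the Hippo kinases and their regulators was examined in the same fit. Not all of these genes restrain YAP, since AJUBA among them inhibits LATS. The list held 37 genes, the Hippo kinases with their adaptors and the upstream regulators, of which 36 were tested and CRB3 was under the minimum. Among them 1 was called higher and 2 lower, 3 rose and 7 fell by adjusted p, and the median log2 fold change was -0.11. The shares over all genes were 5.77% (called higher), 2.08% (called lower), 8.32% (rose) and 4.70% (fell). Without LATS2 and AMOTL2, 5 of 34 fell and the median was -0.09. The median was -0.12 in the kinase module of 17 genes and -0.10 over the 19 upstream regulators. STK4, which encodes the kinase MST1 that activates LATS, had 8298, 8175 and 8490 normalized counts in the controls and 6193, 6245 and 6709 in the clones. It fell by 0.38 on the log2 scale (SE 0.052, limma adjusted p = 0.00495), and with an adjusted p below 0.05 in all 6 fits without 1 library. MOB1B, the adaptor that binds LATS, fell by 0.26 (adjusted p = 0.0223, up to 0.123 without 1 library). TNIK, a kinase of the MAP4K group at 20.6, 14.7 and 17.2 normalized counts in the controls and 31.6, 69.1 and 51.3 in the clones, was called higher (1.43 ± 0.32, limma adjusted p = 0.0305, up to 0.122). MAP4K4 rose by 0.18 (limma, adjusted p = 0.0474, up to 0.208), but was at 0.06 with regional medians subtracted (adjusted p = 0.540), its 40 nearest genes having medians of 0.18, 0.05 and 0.13 in the 3 clones.

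Both genes of the pathway called lower were upstream of the kinases, and encode scaffold proteins of the cell cortex that promote their activity. FRMD6, a FERM-domain protein, had 19553, 18948 and 19662 normalized counts in the controls and 10348, 9788 and 13070 in the clones, with a log2 fold change of -0.82 ± 0.11 (limma, adjusted p = 0.00399). WWC1, which encodes the scaffold KIBRA, had 4730, 4853 and 4502 against 2611, 2019 and 3130 normalized counts (-0.88 ± 0.14, limma adjusted p = 0.00971, up to 0.0568 with 1 library left out). Its paralogue WWC3 went the other way, at 2325, 2454 and 2447 against 3330, 3376 and 3458, a log2 fold change of 0.49 ± 0.051 (limma, adjusted p = 0.00189) just under the limit of 0.5. The 40 genes nearest to WWC3 had median log2 differences of 0.35, 0.18 and 0.29 in the 3 clones, with which subtracted WWC3 was at 0.22 (limma, adjusted p = 0.0425). Those nearest to WWC1 had -0.06, -0.59 and -0.08, with which subtracted WWC1 was at -0.64 (limma, adjusted p = 0.00164). AJUBA, a LIM protein that inhibits LATS, fell by 0.27 (limma, adjusted p = 0.0250, up to 0.114). NF2, the tumour suppressor Merlin and a further scaffold, had 4343, 4369 and 4142 against 4029, 3158 and 2601 normalized counts and did not pass (-0.42, adjusted p = 0.104). NF2 was chosen for mention after its values were seen. Of the 16 STRIPAK genes, whose phosphatase complex switches the MST kinases off, 0 were called in either direction by limma, edgeR or DESeq2, 5 were lower at an unadjusted limma p below 0.05, and 2 fell by adjusted p, FGFR1OP2 (-0.27, adjusted p = 0.0313, up to 0.166) and PDCD10 (-0.21, adjusted p = 0.0376, up to 0.179), with a median of -0.10. Of all tested genes 13.5% were lower at that unadjusted limit and 4.70% fell.

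**Figure D5:**
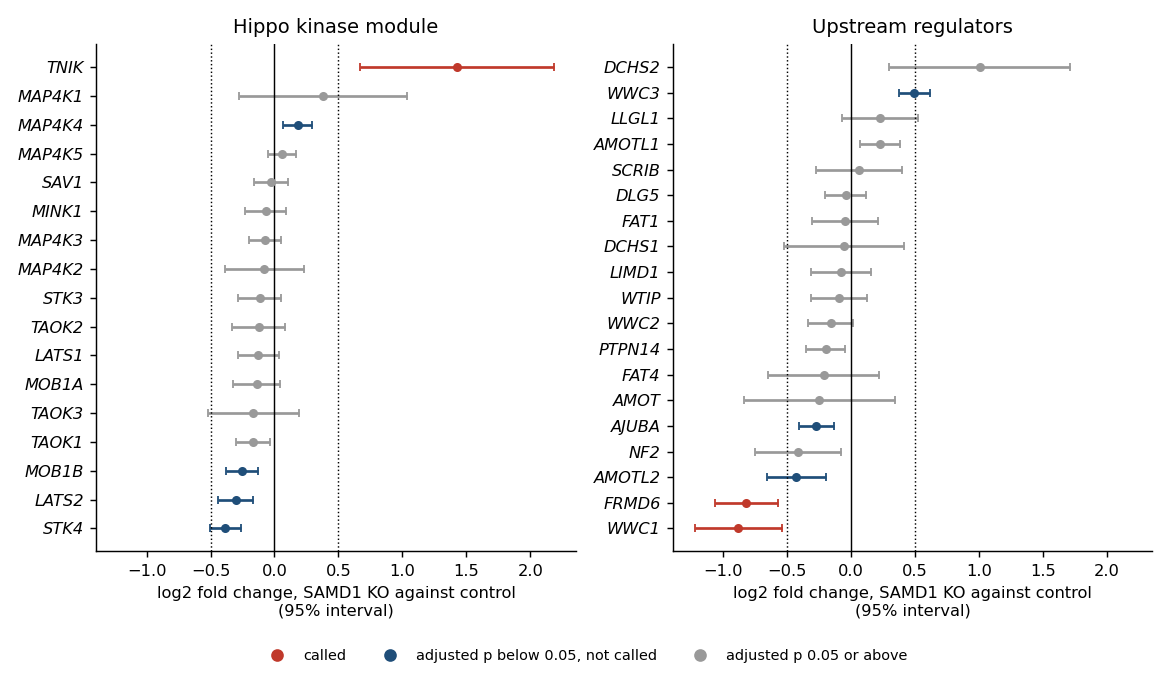
Log2 fold change with its 95% interval (limma, SAMD1 KO against control, n = 3 each) for the 17 tested genes of the Hippo kinase module and the 19 tested upstream regulators, with dotted lines at the limit of 0.5. WWC1, FRMD6 and TNIK were called, while STK4, WWC3 and the other genes in blue passed the adjusted p alone.

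The genes whose pattern over the 6 libraries was most like that of CCN2 were searched among the 11452 genes with a mean of at least 50 normalized counts. Pearson correlations of log2 values were among the highest for SH2D5 (0.997), CLSTN3 (0.997), OAS3 (0.996) and CHST3 (0.995). These 6 points share their libraries and fall into 2 groups, and 209 genes had a correlation above 0.95, so the likeness is a description. SH2D5 had 1756, 1850 and 1692 normalized counts in the controls and 857, 1082 and 1091 in the clones, with clone 1 the lowest as for CCN2.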

How the data were processed

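RNA was sequenced from 3 control and 3 SAMD1 KO libraries of PaTu8988t cells with a stranded poly(A) kit. Per the labels and the study's methods, the authors counted reads per gene with featureCounts on hg38 with GenCode 43 and normalized them with DESeq2. The deposited values are normalized counts, a signal in which 1 read is worth 0.864 to 1.14 units. Whole reads were recovered for 100% of values (tolerance 0.05). The second deposited table holds the authors' own fold changes and p-values and was not used. The 10 genes and all gene lists were chosen with earlier results of these data known.

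Genes with a mean of at least 10 normalized counts (12773) were tested with limma 3.58.1 (moderated variance with a mean trend, under R 4.3.3), after a pseudocount of 1 and the log2 scale. Calls used a log2 fold change beyond 0.5 with p below 0.01. This cut-off and groups follow the study. The recovered reads were also tested with edgeR 4.0.16 and DESeq2 1.42.0. On simulated data of 12773 genes with 200 changed for this comparison, limma recovered 200 with 21 false calls. Recovery of log2 fold changes below 0.5, the range of most of the 10 genes, was not tested. Nor was recovery with the clones more widely spread than the controls, whose median log2 SDs were 0.15 and 0.059. Levels per kb used merged exons of GENCODE 44 (hg38). Intervals cover the spread between libraries only.

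Named genes were the 10, SAMD1, paralogues of the 10, the up to 4 genes with the smallest p in each other list, and the 5 genes most correlated with CCN2, of which 1 is not reported here. Alternatives were another pseudocount, filter and scaling, count models, subtraction of the median of the 40 nearest genes, a replicate block and leaving out each library. Python 3.11.15, SciPy 1.17.1 and matplotlib 3.10.9 were used for the rest.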

Additional observations from a re-analysis of the deposited data

How the results depend on the processing

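CCN2 kept its direction and an adjusted p below 0.05 under every alternative run. Over the 10 genes and all alternatives, 124 of 150 values kept both their direction and their side of the adjusted p limit of 0.05. In 20 the adjusted p went from below the limit to above it, in 5 from above to below, and 1 value turned its sign. The number of the 10 with a lower level by adjusted p was 5, but 3 with a replicate block and 1 to 7 when 1 library was left out, while the number higher went from 1 to between 0 and 1. The number called lower ran from 1 to 2. With regional medians subtracted, TEAD1 passed, while YAP1 and MAP4K4 did not. YAP1 also missed the limit under 75th percentile scaling and with no filter, and CCN1 passed it with DESeq2. These counts of adjusted p, and the fits of genes outside the 10, were added after seeing the data. In the target list, 3 to 6 genes were called lower when 1 library was left out and the median was -0.31 to -0.20. In the pathway list, 1 gene was called higher, but 2 under 75th percentile scaling, with regional medians subtracted or with the block, 0 when a mean of 50 was required, and 0 to 2 with 1 library left out, where the median was -0.13 to -0.074. The cause was not tested. Same-numbered controls and clones had deviations correlated at 0.0391, 0.134 and 0.0318, and control 3 correlated best with clone 1, so the numbers were not treated as pairs. The block gave 725 genes called higher and 259 lower. Signs turned for VGLL4 (-0.12) and TEAD3 (0.032) with regional medians subtracted. Leaving out 1 library gave ranges across 0 for ANKRD1 (-0.33 to 0.10), TEAD3 (-0.17 to 0.061), VGLL4 (-0.10 to 0.15), AMOT (-0.43 to 0.034), VWF (-0.45 to 0.18), and the shares of TEAD3 (-0.37 to 1.23 percentage points) and TEAD4 (-0.96 to 0.93). Over all genes, 568 to 862 were called higher and 180 to 370 lower with 1 library left out, against 737 and 266. With 3 libraries against 3, no comparison can give an exact permutation p below 0.1.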
